A study of Homo sapiens with 4 samples.

Results

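A group of 10 inflammatory genes, for secreted factors and 1 enzyme, was followed across single A375 melanoma cells before and after adaptation to MAPK pathway inhibitors. They were the interleukin-1 cytokines *IL1A* and *IL1B*, the gp130 cytokines *IL6*, *IL11* and *LIF*, the chemokines *CXCL8*, *CXCL1*, *CXCL2* and *CCL2*, and the prostaglandin-endoperoxide synthase gene *PTGS2* (also called *COX2*). These 10 genes were chosen by name, with earlier results of these data known. They were matched by symbol to Ensembl gene identifiers and found in all 4 deposited count tables, among 34241 identifiers listed in any table. A375 is an established human melanoma line with the *BRAF* V600E mutation. S denotes untreated cells, RV cells adapted to the BRAF inhibitor vemurafenib, RVC cells adapted to vemurafenib plus the MEK inhibitor cobimetinib, and RVT cells adapted to vemurafenib plus the MEK inhibitor trametinib. The adapted cultures had 10 to 14 days under inhibitor at a dose below the IC50 and were freed of inhibitor for 24 h before capture, so the values describe cells shortly after drug removal. Each condition was 1 droplet library (10x Genomics Chromium v2), with no replicate.

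Inflammatory cytokine genes are typically kept low and induced together by NF-kB, AP-1 and C/EBP transcription factors, and many of their transcripts carry AU-rich elements in the 3' untranslated region that shorten their life. Interleukin-1 made by melanoma cells can act back on the same cells through its receptor and induce *IL6*, *CXCL8* and *CXCL1*. *CXCL8*, *CXCL1* and *CXCL2* attract neutrophils through CXCR1 and CXCR2, *CCL2* attracts monocytes through CCR2, and the gp130 cytokines signal through JAK kinases and STAT3. The enzyme encoded by *PTGS2* makes the precursor of prostaglandin E2 and the other prostanoids.

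Matches to short motifs in the promoters differed within the group. RefSeq promoters (build GRCh38.p14, 250 bases before to 50 after the start) were available for 8 of the 10 genes, *LIF* and *CCL2* being the others. The 160 bases that end just before the start are shown for the neutrophil chemokines, *IL6* and *PTGS2*, which are described at most length below. Capitals mark matches to NF-kB (GGGRNWYYCC), AP-1 (TGANTCA), C/EBP (TTGCNNAA) and the cyclic AMP element (TGACGTCA), each on either strand. They also mark TATAAA on the gene's strand. In these strings R is A or G, Y is C or T, W is A or T, and N is any base.
CXCL8, chr4:73740409-73740568, plus strand: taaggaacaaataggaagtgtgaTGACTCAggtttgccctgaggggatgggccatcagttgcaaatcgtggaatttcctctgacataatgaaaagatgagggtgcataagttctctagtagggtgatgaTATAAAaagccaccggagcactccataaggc
CXCL1, chr4:73869233-73869392, plus strand: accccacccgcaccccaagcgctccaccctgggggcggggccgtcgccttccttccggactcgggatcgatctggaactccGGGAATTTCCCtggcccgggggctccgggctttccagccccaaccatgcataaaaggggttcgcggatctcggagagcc
CXCL2, chr4:74099196-74099355, minus strand: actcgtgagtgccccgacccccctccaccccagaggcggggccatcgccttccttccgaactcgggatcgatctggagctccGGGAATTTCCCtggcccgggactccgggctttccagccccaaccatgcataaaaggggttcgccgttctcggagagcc
IL6, chr7:22727040-22727199, plus strand: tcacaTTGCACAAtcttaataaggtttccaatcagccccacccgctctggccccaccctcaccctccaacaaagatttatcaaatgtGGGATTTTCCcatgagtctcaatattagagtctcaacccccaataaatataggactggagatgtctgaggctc
PTGS2, chr1:186680424-186680583, minus strand: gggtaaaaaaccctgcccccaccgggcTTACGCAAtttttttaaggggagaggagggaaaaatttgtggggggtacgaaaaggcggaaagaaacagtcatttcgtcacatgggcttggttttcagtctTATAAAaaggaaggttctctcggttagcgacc

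*CXCL1* and *CXCL2* carried the same 11-base NF-kB match, GGGAATTTCCC, beginning 79 and 78 bases upstream of the start. In *IL6* the NF-kB match began 73 bases upstream. Over the whole 300-base window an NF-kB match was found in 3 of 8 promoters (*IL6*, *CXCL1*, *CXCL2*), against 5.91% of all 35116 promoters in the table. AP-1 matches were present in 3 of 8 (*IL1A*, *IL11*, *CXCL8*), against 7.71% of all promoters, and C/EBP matches in 4 of 8 (*IL1B*, *IL6*, *CXCL2*, *PTGS2*), against 10.5%. A cyclic AMP element was found in 0 of 8 promoters and in 1.85% of all. TATAAA was found in 3 of 8 (*IL1A*, *CXCL8*, *PTGS2*) and in 7.33% of all. It began 31 bases upstream of the start in *CXCL8* and 32 in *PTGS2*, but 239 in *IL1A*. The matches describe letters within the window and say nothing of occupancy. Stretches that depart from these strings were not counted. In *CXCL8* tggaatttcc departs from the NF-kB string at its opening letter, and ttgcaaat from the C/EBP string at its last. In *PTGS2* tttcgtca resembles the cyclic AMP element but departs from its string. A promoter without a match is therefore not shown to lack a site for the factor.

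The AU-rich nonamer TTATTTATT, a core of AU-rich elements, was present in the annotated 3' untranslated region (GENCODE 29) of 7 of the 10 genes, against 7.19% of 18853 genes with such a region. One site is shown for each of 6 of them, with the nonamer in capitals, since genes of this group that were high in different libraries share it.
IL1B: gcttccctatTTATTTATTtatttgtttg
IL11: aagccagatcTTATTTATTtatttatttc
CXCL8: atgtaaagtaTTATTTATTtgaatctaca
CXCL1: agtcttctatTTATTTATTtattcattag
CXCL2: agtcttctatTTATTTATTtatttattta
PTGS2: atgatcatatTTATTTATTtatatgaacc

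*IL11* held 6 nonamers, *CXCL2* 5, *CXCL1* 3, *IL1B* and *LIF* 2 each, and *CXCL8* and *PTGS2* 1 each. *IL1A*, *IL6* and *CCL2* had 0, although *IL6* had 6 copies of the shorter ATTTA and *IL1A* had 5. *PTGS2* had 22 copies of ATTTA over 2562 bases. Per 1000 bases of the region, the median of the 10 genes was 7.14 copies of ATTTA, against 1.55 over the 17363 genes with at least 100 bases.

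After filtering, 6334 S, 4177 RV, 7628 RVC and 8446 RVT cells remained, with median depths of 8799.5, 11553, 3958 and 2864 UMIs (unique molecular identifiers, each counting 1 captured transcript) per cell. Levels are UMIs of a gene per 1000000 UMIs of the filtered library (CPM) with exact Poisson intervals. Ratios carry exact conditional binomial intervals and shares of cells Clopper-Pearson intervals, all at 95%. These cover counting error only: with 1 library per condition the spread between cultures is unknown and no test between conditions was possible. The 4 libraries were counted with 2 annotations, 1 for S and RV and another for RVC and RVT, and those pairs also differed in depth, so that drug and library differences cannot be told apart where RVC or RVT is set against S. Transcripts with a high GC content in their last 500 bases were lower in both double-treated libraries. Among 10 equal bins of GC content, the richest bin had a median log2 ratio over S of -1.60 for RVC and -1.65 for RVT, and the poorest bin 0.59 and 0.99. Libraries shared 36 to 103 cell barcodes.

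Of the 12 leukocyte markers, which summed to 36.5 CPM in S and 168 in RVC, 5 to 8 were at 0 UMIs in each library, among them *PTPRC*, *CD3E*, *MS4A1* and *TYROBP* in all 4, and most UMIs came from the lysosomal gene *CD68*. In RVC, *FCER1G* had 403 UMIs (12.2 CPM, against 1.01 in S) and *CD3D* 79 UMIs (2.40 CPM, against 0.0171 in S), and their part in the RVC values was not tested. The 7 fibroblast markers summed to 2.68 (S), 2.21 (RV), 173 (RVC) and 44.2 CPM (RVT), with *COL3A1* at 121 CPM in RVC and 0 UMIs in S and RV. The 11 melanocyte and melanoma markers summed to 437 (S), 288 (RV), 82.5 (RVC) and 237 CPM (RVT). *TYR* had 0 UMIs in all libraries and *MLANA* at most 1, while *SOX10*, a neural crest and melanocyte transcription factor, stood at 86.5 (S), 39.9 (RV), 0 UMIs (RVC) and 19.7 CPM (RVT). *S100B* had 0 UMIs in RVC against 32.8 CPM in S, and *MIA* was at 1.88 against 245 CPM, while *PRAME* (57.2 against 35.0) and *TYRP1* (4.73 against 0.0684) were higher in RVC. *S100B* was also low in RVT, at 0.236 CPM on 6 UMIs. The list went both ways there. Of the 7 melanocyte and melanoma markers with a mean of at least 1 CPM, 2 were at least 2-fold higher and 4 lower in RVT than in S. The shares of all such genes were 34.1% and 21.7%. The RVC library thus lacked *SOX10*, which the other A375 libraries had, and what part this difference has in the RVC values below was not tested.

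The interleukin-1 genes were low in both double-treated libraries and went apart under vemurafenib alone. *IL1A*, whose product is active without processing and acts as an alarm signal of damaged cells, was at 12.95 (S), 3.16 (RV), 2.00 (RVC) and 0.276 CPM (RVT). All 4 intervals were separate, and the RVT level rested on 7 UMIs in 7 cells. Compared with S, *IL1A* was 4.09-fold lower in RV (3.46 to 4.87), 6.47-fold lower in RVC (5.03 to 8.45) and 47.0-fold lower in RVT (22.7 to 117). *IL1B*, whose precursor is cut by caspase-1 before release, was at 21.0 (S), 40.7 (RV), 3.55 (RVC) and 5.63 CPM (RVT). RV was the highest library for *IL1B*, 1.94-fold above S (1.81 to 2.08), whereas RVC was 5.91-fold (4.89 to 7.21) and RVT 3.73-fold (3.13 to 4.46) below S. Giving every cell equal weight brought the RV to S ratio to 2.05, across the 2-fold line used here for calls. *IL1A* and *IL1B* lie next to each other on chromosome 2, within 2:112773915-112836903. Of the 7 further genes of that cluster, *IL37* reached 0.701 CPM in S and 0.648 in RV, and the others had at most 3 UMIs in any library, the receptor antagonist *IL1RN* having 1 UMI in all.

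The gp130 cytokines differed in pattern. Their genes (GRCh38, GENCODE 29) lie at 7:22725884-22732002 on the plus strand for *IL6*, and on the minus strand at 19:55364389-55370463 for *IL11* and 22:30240447-30246851 for *LIF*. *IL6*, an inducer of acute phase and STAT3 responses, was at 3.69 (S), 2.88 (RV), 24.4 (RVC) and 4.10 CPM (RVT). RVC stood alone, 6.61-fold above S (5.68 to 7.71) and 5.95-fold above RVT (4.85 to 7.37), while the interval of RVT over S, 0.870 to 1.41, included 1. The log2 ratio of *IL6* in RVT over S, 0.15, was -0.37 under TMM and -0.82 when centred on GC content. Without the 1% of cells with most *IL6* UMIs it was -1.95. Those cells held 87.5% of the *IL6* UMIs in RVT and 46.3% in S, so that value depends on sparse detection and is not read as a drop. *IL11*, which is linked to fibrosis and to TGF-beta signalling, was at 63.4 (S), 48.9 (RV), 48.6 (RVC) and 6.07 CPM (RVT). The RV and RVC intervals overlapped, and RVT was 10.5-fold below S (8.90 to 12.4). *LIF*, which sustains stem cells in culture, was at 16.7 (S), 23.5 (RV), 16.9 (RVC) and 5.51 CPM (RVT). S and RVC did not differ beyond counting error (ratio 1.01, interval 0.908 to 1.12), RV was 1.41-fold above S and RVT 3.03-fold below it. *IL6* and *LIF* overlap annotated genes on the opposite strand (*STEAP1B* and a noncoding gene for *IL6*, *LIF-AS1* and another noncoding gene for *LIF*). Whether reads were assigned by strand is not given in the sources used here.

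**Figure D1:**
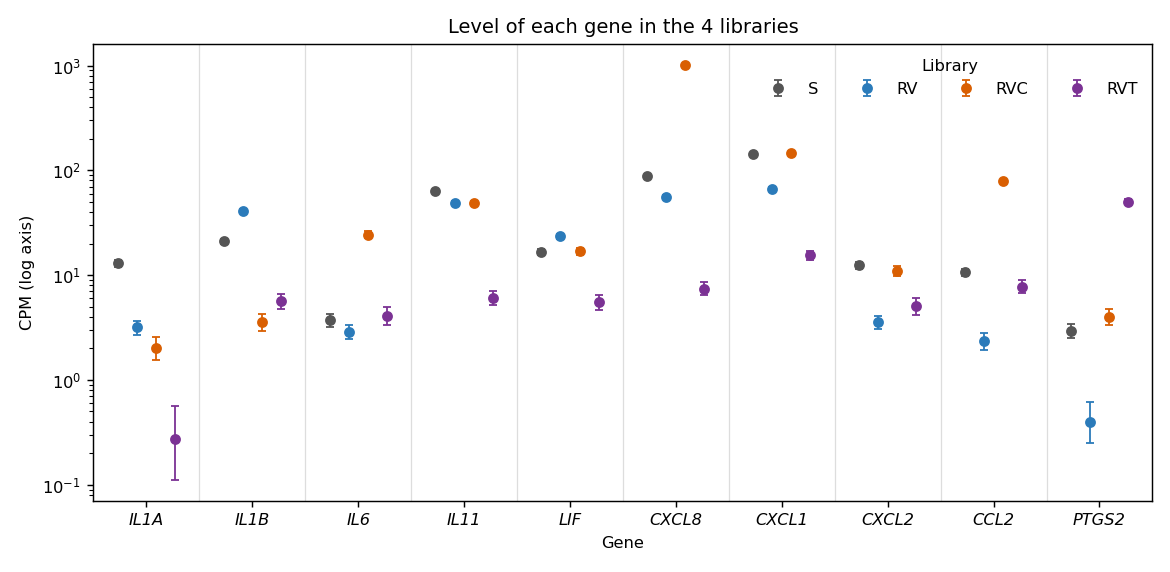
Level of each gene in CPM (log axis) in the S, RV, RVC and RVT libraries, 1 library each; points are the summed UMIs of the filtered cells and bars the exact 95% Poisson intervals. *CXCL8*, *IL6* and *CCL2* peak in RVC, *PTGS2* in RVT and *IL1B* in RV, and *IL1A* steps down from 12.95 in S to 0.276 in RVT.

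Among the 4 chemokines, *CXCL8* showed the widest range between libraries. *CXCL8*, encoding interleukin-8, was at 87.9 (S), 55.5 (RV), 1006 (RVC) and 7.44 CPM (RVT). The RVC level was 11.5-fold above S (11.1 to 11.8) and the RVT level 11.8-fold below S (10.2 to 13.7). Between the double-treated libraries the difference was 135-fold (117 to 157), RVC being the higher. *CXCL1* did not follow *CXCL8*: it was at 143 (S), 66.8 (RV), 145 (RVC) and 15.5 CPM (RVT). S and RVC overlapped for *CXCL1* (ratio 1.02, interval 0.980 to 1.05), RV was 2.14-fold below S (2.06 to 2.23) and RVT 9.21-fold below S (8.32 to 10.2). *CXCL2* was at 12.4 (S), 3.56 (RV), 10.9 (RVC) and 5.04 CPM (RVT). *CXCL2* was lowest in RV, and *CXCL1* in RVT. For *CXCL2* this order depended on scaling. When centred on GC content, its log2 ratio over S was -1.83 in RV and -2.27 in RVT. The interval of RVC over S for *CXCL2*, 0.776 to 1.00, included 1.

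*CXCL8*, *CXCL1* and *CXCL2* lie in 1 cluster on chromosome 4 (4:73740506-74099293) with 6 further genes. *CXCL6*, *PF4V1*, *PF4*, *PPBP* and *CXCL5* had 0 UMIs in all libraries. *CXCL3*, the closest relative of *CXCL1* and *CXCL2*, was at 44.0 (S), 13.2 (RV), 4.91 (RVC) and 1.61 CPM (RVT). Thus *CXCL3* was low in RVC, where *CXCL1* was at its S level. The 3 paralogs are near-identical in sequence, and how the authors' counting treated reads that match more than 1 of them is not given in the sources used here.

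*CCL2* (17:34255218-34257203, plus strand), a monocyte chemokine, was at 10.7 (S), 2.34 (RV), 78.5 (RVC) and 7.76 CPM (RVT). RVC was 7.36-fold above S (6.74 to 8.05), and RV was 4.55-fold below S (3.74 to 5.56). The RVT level, 1.37-fold below S (1.17 to 1.62), included 1 cell that held 78 of the 197 *CCL2* UMIs. Without that cell *CCL2* was 2.22-fold lower in RVT than in S. Of its neighbours on chromosome 17, *CCL7* had 25 UMIs in RVC and 0 elsewhere, and *CCL11*, *CCL8*, *CCL13* and *CCL1* had 0 in all 4 libraries.

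*PTGS2* (1:186671791-186680427, minus strand) had its highest level in RVT. It was at 2.92 (S), 0.400 (RV), 3.97 (RVC) and 49.98 CPM (RVT). The RVT level was 17.1-fold above S (14.6 to 20.2) and 12.6-fold above RVC (10.5 to 15.2), and its log2 ratio over S, 4.10, became 3.11 when centred on GC content. The RV level, 21 UMIs, was 7.30-fold below S (4.63 to 12.1). RVC over S, at 1.36, had a log2 ratio of -0.14 when centred on GC content, the opposite direction. Next to *PTGS2* on chromosome 1, with 0 protein-coding genes and 149 kb between them, lies *PLA2G4A*, which encodes the cytosolic phospholipase A2 that frees the arachidonic acid used by the enzyme. *PLA2G4A* was at 0.940 (S), 0.858 (RV), 0.637 (RVC) and 23.2 CPM (RVT). The noncoding gene *PACERR*, which starts beside the *PTGS2* promoter on the other strand and was picked after its values were seen, had 3 UMIs (S), 2 (RV), 5 (RVC) and 52 (RVT). All 3 neighbouring genes were thus highest in RVT.

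Calls at 2-fold were read against all 12679 genes with a mean of at least 1 CPM over the 4 libraries. Since the 10 genes were chosen with earlier results of these data known, these shares are a description and not a test. In RV over S, 0 of the 10 genes were at least 2-fold higher, against 3.53% of all genes, and 5 were at least 2-fold lower (*IL1A*, *CXCL1*, *CXCL2*, *CCL2* and *PTGS2*), against 3.2%. In RVC over S, 3 genes were higher (*IL6*, *CXCL8*, *CCL2*), against 23.8% of all genes, and 2 were lower (*IL1A*, *IL1B*), against 22.3%. Both RVC counts are close to the share of all genes that moved as far. In RVT over S, only *PTGS2* was higher, against 34.1%, and 7 genes were lower, all but *IL6*, *CCL2* and *PTGS2*, against 21.7%. In RVT over RVC, *PTGS2* alone was higher, against 21.7%, and 8 genes were lower, all but *IL1B* and *PTGS2*, against 12.2%. The median log2 ratio of the 10 genes was -0.88 in RV over S, 0.02 in RVC over S, -1.75 in RVT over S and -2.72 in RVT over RVC, while the medians of all genes tested were 0.02, 0.21, 0.41 and 0.29. RV, RVC and RVT were all compared with the same S library, so these counts are not independent of each other.

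Scaling by TMM shifted all log2 ratios by -0.21 in RVC over S, -0.52 in RVT over S and -0.30 in RVT over RVC, and left every call on the 10 genes as it was. Over all genes, the higher calls made up 51.6% of the calls in RVC over S, 61.2% in RVT over S and 64.0% in RVT over RVC. Under TMM these shares were 40.8%, 41.4% and 43.8%, and with log2 ratios centred on GC content 43.6%, 47.2% and 45.4%. The centring changed 1 call of the group: *CCL2* in RVT over S went from a log2 ratio of -0.46 to -1.15. In RVT over S the centred value was the lower for all 10 genes, for example -4.55 against -3.56 for *CXCL8*, and in RVC over S that of *CXCL8* was 2.93 against 3.52.

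**Figure D2:**
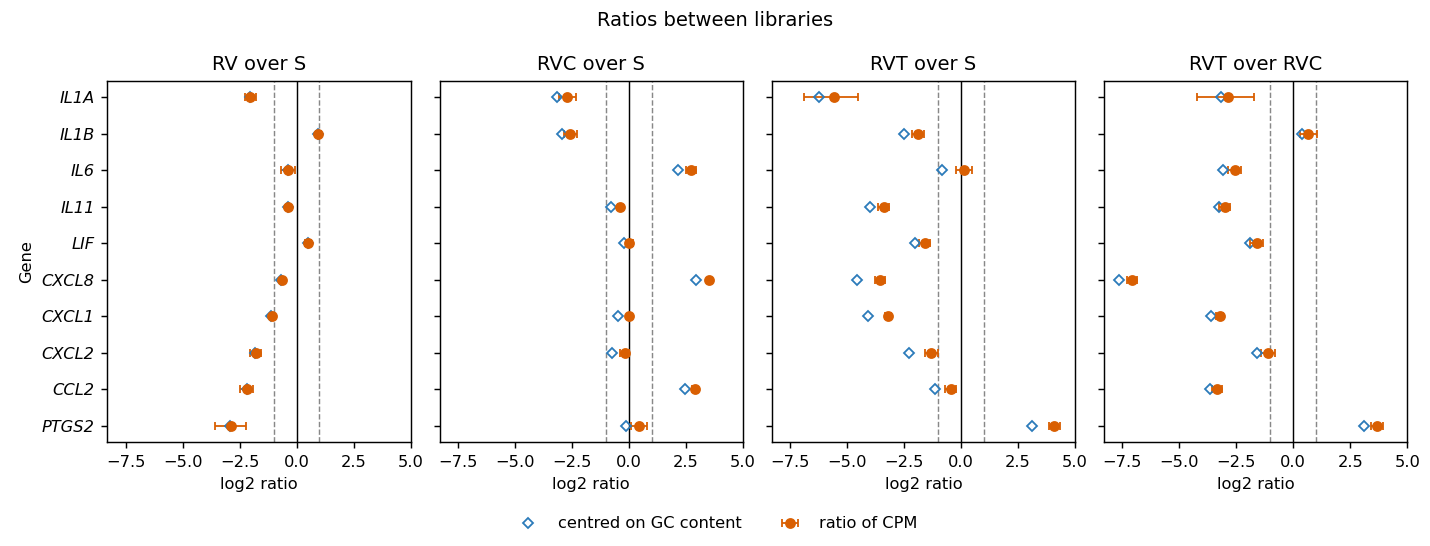
Log2 ratio of each gene in 4 comparisons between libraries; orange points are ratios of CPM with exact 95% intervals, blue diamonds the same ratio centred on genes of like GC content, and dashed lines mark 2-fold. RVT lies below RVC for every gene but *IL1B* and *PTGS2*, and the diamonds stay on the same side of the 2-fold lines for all genes but *CCL2* in RVT over S.

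How many cells carried a transcript was compared after every cell was thinned to 1500 UMIs, which left out 397 RVC and 844 RVT cells of lower depth. At this depth *CXCL8* was detected in 9.16% (S), 5.72% (RV), 59.5% (RVC, interval 58.3 to 60.6) and 0.842% (RVT) of cells. Before thinning the shares were 26.5%, 25.0%, 79.0% and 1.54%. *CXCL8* was thus found in most RVC cells and in few RVT cells. *PTGS2* was found in 0.521% (S), 0.0239% (RV), 0.470% (RVC) and 6.72% (RVT, interval 6.17 to 7.31) of cells after thinning. *IL1B* was found in 3.0% (S), 6.25% (RV), 0.415% (RVC) and 0.750% (RVT) of cells. *CCL2* was found in 6.76% of RVC cells and *IL6* in 2.82%, against 1.26% and 0.521% in S. Even spread over all RVC cells would have given only 27.7% for *CCL2* and 9.87% for *IL6* before thinning. These low shares therefore cannot show how many RVC cells expressed either gene. No cell type that lacks these genes was present to set a background of detection.

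At least 1 of the 10 genes was detected in 29.9% (S), 27.5% (RV), 69.1% (RVC) and 12.3% (RVT) of cells at equal depth. At least 2 were detected in 8.45%, 4.38%, 19.5% and 1.03%. RV and S were close for 1 gene but apart for 2 or more, where RV (3.78 to 5.05%) lay below S (7.77 to 9.16%).

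The transcripts were unevenly spread over cells, to a degree that differed by gene. If each cell held a share of the UMIs in proportion to its depth, *CXCL1* would have been detected in 70.7% of S cells, and it was detected in 34.2%. For *CXCL8* in S the corresponding values were 53.9% and 26.5%, and the 5% of cells with most UMIs held 54.6% of them. *CXCL8* in RVC was nearer to an even spread, at 79.0% of cells against 94.6%. There the top 5% of cells held 26.8% of the UMIs, and 31.4% of all RVC cells had at least 5 UMIs. *CCL2* was also detected in fewer cells than an even spread would give. In RVC it was detected in 12.9% of cells against 27.7% for an even spread, with 75.9% of its UMIs in the top 5% of cells. In RVT it was detected in 52 cells only, or 0.616% against 2.30%. The top 5% share alone does not show concentration, since it also depends on level. For *LIF* in RVC it was 75.0%, with detection close to an even spread (6.82% against 6.96%). *LIF* was spread nearly evenly, with 23.7% of RV cells observed against 25.0% for an even spread. *PTGS2* in RVT was nearer to an even spread than *CCL2*, at 11.3% against 13.8%, and no RVT cell had more than 8 of its 1269 UMIs.

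**Figure D3:**
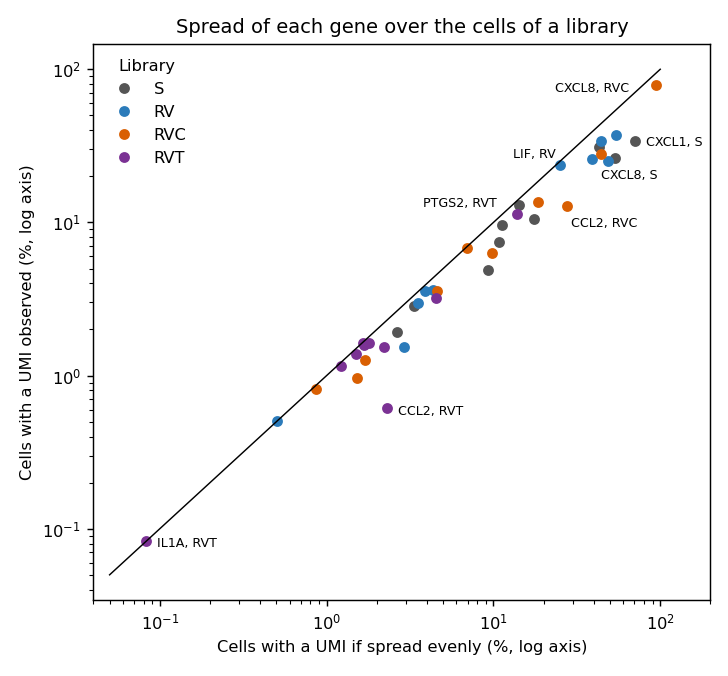
Share of cells with at least 1 UMI of a gene (vertical, %, log axis) against the share computed for UMIs spread over cells in proportion to their depth (horizontal, %, log axis); each point is 1 of the 10 genes in 1 library, and the line marks equality. *CCL2* in RVT (0.616% against 2.30%) and *CXCL1* in S (34.2% against 70.7%) lie far below the line, whereas *LIF* in RV lies on it.

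Detection of pairs of genes in the same cell was described in the thinned cells, for pairs in which each gene was found in at least 30 cells. Each pair was counted once, as the share with the gene named later in the opening list among cells with and without the earlier one. Cells of a library share their culture, so the intervals describe these cells and not the condition. Pairs are called found together more often where the later gene had the higher share in cells with the earlier one, with separate intervals. This held for 16 of 45 pairs in S, and all but *CCL2* with *CXCL2* and *IL1B* with *PTGS2* involved *CXCL1* or *CXCL8*. Among S cells with *CXCL8*, 41.9% had *CXCL1* (37.8 to 46.0), against 9.78% of cells without it. Among S cells with *CXCL1*, 6.08% had *CXCL2*, against 0.886% of the others. *IL1B* went with *CXCL1* as well, which was found in 36.8% of S cells with *IL1B* and 12.0% of those without. For *IL1B* with *CXCL2* the intervals overlapped (3.16% against 1.5%).

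In RV only 10 pairs had enough cells, and 2 were found together more often, *CXCL8* with *CXCL1* (22.6% against 8.0%) and *IL1B* with *CXCL8* (11.5% against 5.34%). *IL1B* and *IL11* were found together less often in RV, 2.68% of cells with *IL1B* having *IL11* (1.08 to 5.45) against 6.49% of the others (5.73 to 7.30). With another random draw of UMIs the intervals of that pair overlapped, so this result was not stable.

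In RVC, 21 of 36 pairs were found together more often. *CCL2* was found in 26.0% of RVC cells with *IL6* (20.1 to 32.6) and in 6.20% of the others. *CXCL1* was found in 37.3% of RVC cells with *IL6* against 14.2%, and in 29.4% of those with *CCL2* against 13.8%. *CXCL1* was in 17.4% of RVC cells with *CXCL8* and 11.1% of those without, whereas for *CXCL8* with *CCL2* the intervals overlapped (7.11% against 6.25%). In RVT, 3 of 36 pairs were found together more often, of which *CXCL8* with *CXCL1* was in 16 cells, *CXCL1* with *CCL2* in 7 and *IL6* with *CCL2* in 2. *PTGS2*, the gene of this group that was highest in RVT, was in none of those 3 pairs.

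**Figure D4:**
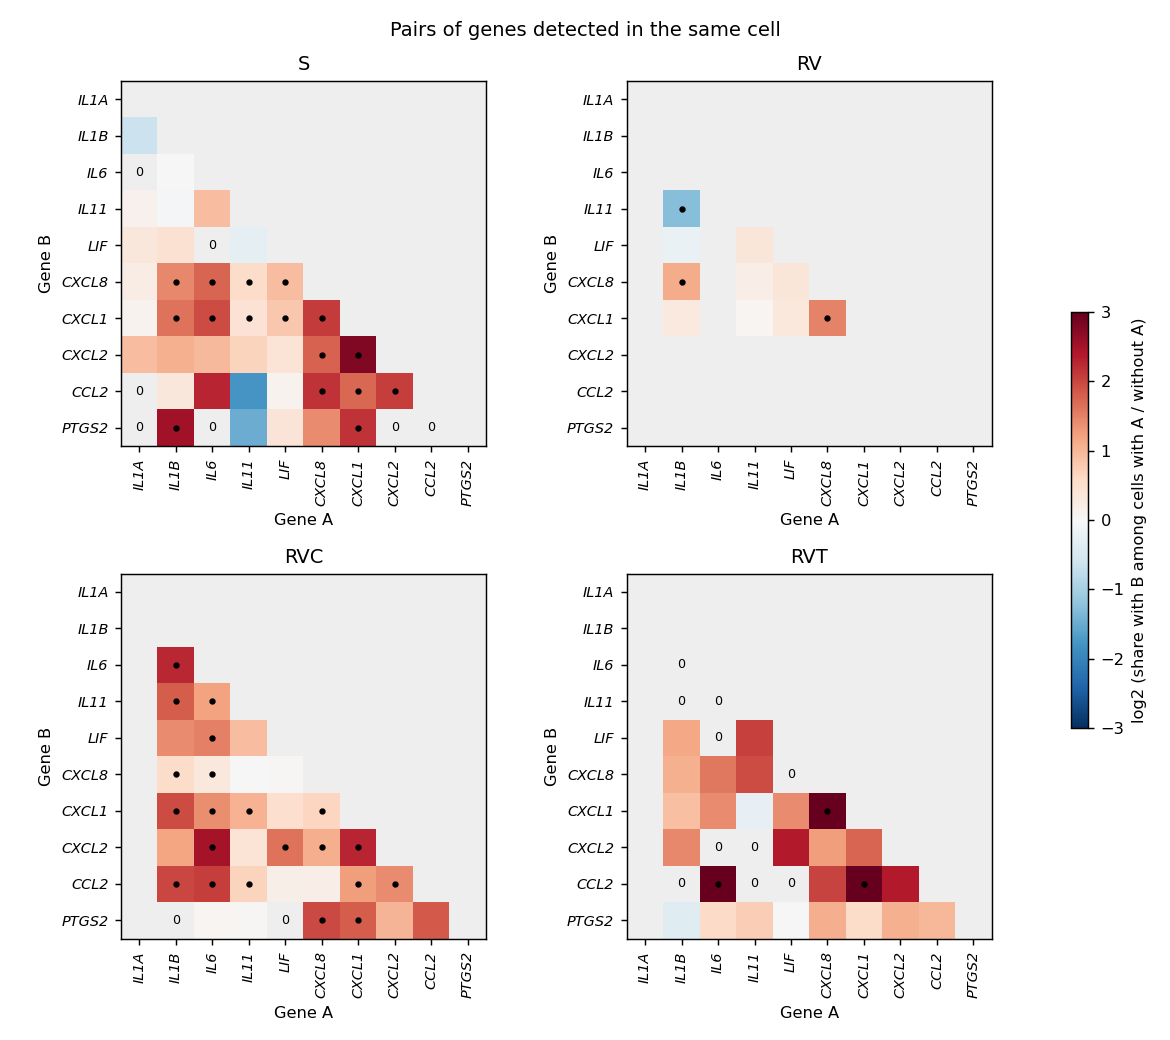
Detection of gene pairs in the same cell after thinning to 1500 UMIs; colour gives the log2 ratio of the share of cells with gene B among cells with and without gene A (colour ends at -3 and 3), dots mark pairs whose 95% intervals were separate, 0 marks pairs never found together, and other grey fields had under 30 cells for a gene. S has 16 dots and RVC 21, RV has 3, of which 1 is for a pair found less often together, and RVT has 3.

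Within RVC the levels of the genes differed between classes of cells. The study lists *COX2*, taken here to mean *PTGS2*, with *MMP1* (interstitial collagenase), *NTS* (neurotensin) and *EGR1* in 1 cell state. It found that state mostly in RVC and less in RVT, and chose the genes on these same libraries. *PTGS2* itself was at 3.97 CPM in RVC and 49.98 in RVT over all filtered cells. The study's cell state was not rebuilt here, so these levels do not bear on its placing of the gene. RVC cells with and without *MMP1*, *NTS* or *EGR1* were compared. *CXCL8* was at 1355 CPM in the 3503 thinned RVC cells with an *MMP1* UMI and at 849 in the 3728 cells without, a ratio of 1.60 (1.54 to 1.66). The other chemokines and cytokines went the opposite way. *IL6* was at 10.1 CPM in cells with *MMP1* and 33.4 in cells without, *CCL2* at 43.4 and 110, *IL11* at 26.8 and 60.4, and *CXCL1* at 101 and 168. *LIF* and *CXCL2* were lower in cells with *MMP1* as well, and the intervals of the ratio for *IL1A*, *IL1B* and *PTGS2* included 1. Splitting RVC by *NTS* gave a like division, with *CXCL8* higher (1.32-fold, 1.28 to 1.37) and 8 genes lower in cells with *NTS*, *CCL2* being at 30.5 CPM against 108. These were differences of level, and *CXCL8* was found more often in RVC cells with *IL6* (73.5%) than in those without (59.1%). RVC cells with *MMP1* or *NTS* thus had more *CXCL8* and less *IL6* and *CCL2* than the other RVC cells. For *IL6* and *CCL2* this was not particular to them. RVC cells with *CDKN1A*, which the study lists for another state, had ratios of 0.493 for *IL6* and 0.587 for *CCL2*. For *CXCL8* the ratio was 1.10 (1.04 to 1.16). These intervals count every UMI as independent, although 1 cell with *CDKN1A* held 17 *CXCL8* UMIs. They are therefore too narrow to read a *CXCL8* ratio so near 1 as a difference. Splits by *KDM5B*, *NEAT1* or *FOSL1* did not give this division for all 3 genes. The split by *EGR1* gave smaller differences. *IL6* (13.1 against 23.6 CPM) and *CCL2* (53.6 against 81.6) were lower in RVC cells with *EGR1*. The *CXCL8* ratio, 1.07 (1.02 to 1.12), was again too near 1 to be read as a difference. The intervals for the other 7 genes included 1. For *PTGS2* the interval of the ratio included 1 for *MMP1* and *NTS* as well (0.458 to 1.80 for *MMP1*), which does not show equal levels.

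**Figure D5:**
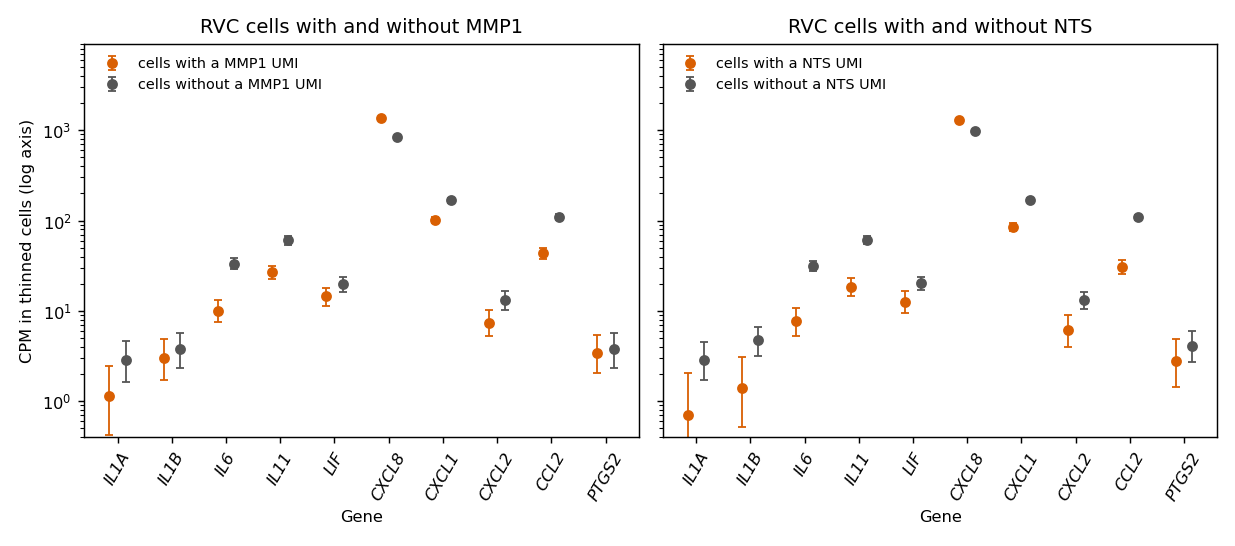
Level of each gene (CPM in thinned cells, log axis) in RVC cells with and without a UMI of *MMP1* (left) or *NTS* (right), with exact 95% Poisson intervals. *CXCL8* is higher in cells with the partner gene (1355 against 849 CPM for *MMP1*), and *IL6*, *IL11*, *CXCL1*, *CXCL2* and *CCL2* are lower.

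Correlation across cells (Pearson, on ln of 1 plus UMIs per 10000) was taken as a description, over the library where each gene was highest, without a test. The cells of a library share their culture and their capture. In the 7628 RVC cells the genes most like *CXCL8* were *MMP1* (r = 0.23), the Wnt antagonist *DKK1* (0.22), *LRRC17* (0.18), *MMP3* (0.18) and *CXCL1* (0.18). For *CCL2* they were *C15orf48* (0.31), the activin subunit *INHBA* (0.31), *FABP6* (0.26), *FN1* (0.26) and *IL6* (0.22), and *IL6* and *CXCL1* each shared *C15orf48*, *INHBA*, *FABP6* and the aldose reductase gene *AKR1B1* among their first 5. In RVC cells with a *C15orf48* UMI, a class picked for these correlations and so only another view of them, *IL6* was at 57.4 CPM against 9.93 in the others, *CCL2* at 196 against 36.9 and *IL11* at 89.0 against 28.7, while *CXCL8* was at 958 against 1141. RVC cells with the fibroblast marker *COL3A1*, a class also picked after the values were seen, had less of both genes: *IL6* was at 4.23 CPM in RVC cells with *COL3A1* and 25.3 in the others, and *CCL2* at 44.1 and 83.7. *CXCL8* was higher in the cells with *COL3A1*, at 1427 against 1034 CPM (ratio 1.38, 1.32 to 1.44).

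In the other libraries the likest genes differed. In the 6334 S cells *CXCL2* was most like *CXCL1* (r = 0.40), *CXCL3* (0.39), *CXCL8* (0.29) and the NF-kB inhibitor *NFKBIA* (0.27). *IL1B* in the 4177 RV cells was most like *S100A6* (0.31), the nuclear noncoding RNA *NEAT1* (0.27) and *LGALS1* (0.27). *IL11* in S was most like the histone gene *H2AFZ* (0.26), the cytokine receptor *TNFRSF12A* (0.26) and *HIST1H4C* (0.26). *IL1A* in S was most like *INHBA* at 0.18. The highest values for *LIF* and *PTGS2* were 0.09 and 0.12, weak values in such sparse counts, and no finding.

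*IL1B* is listed by the study with *CDKN1A*, *KDM5B* and *NEAT1* as a gene of slow-cycling cells, again chosen on these libraries. *CDKN1A* encodes the cell cycle inhibitor p21. In S, *IL1B* was at 45.3 CPM in cells with *CDKN1A* and 21.5 in the others, a ratio of 2.11 (1.46 to 2.97), and in RV the ratio was 1.38 (1.04 to 1.79). RV cells with *NEAT1* had *IL1B* at 69.6 CPM against 29.8 (ratio 2.34, 1.83 to 2.99), while in S and RVC the intervals for *NEAT1* included 1 (0.960 to 1.65 and 0.309 to 1.35). *IL1B* was lower in mitotic cells (UMIs of at least 3 of 10 mitotic genes), at 7.86 CPM against 25.2 in S and 25.2 against 49.2 in RV. In RVC and RVT the intervals of the *IL1B* ratio included 1 for *CDKN1A* and for mitotic cells (1.85, 0.827 to 3.88, and 1.25, 0.251 to 3.85, for mitotic cells). For *KDM5B* they included 1 in all 4 libraries.

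In S, *CXCL1*, *CXCL8* and *IL11* went the other way in the cell cycle. *CXCL1* was at 242 CPM in the 509 mitotic S cells and 136 in the others, *CXCL8* at 130 and 86.3, and *IL11* at 106 and 55.1. For *CCL2* in S the interval of the ratio included 1 (0.365, 0.0740 to 1.10). In RV, *CXCL8* was at 97.8 CPM in mitotic cells and 47.0 in the others. RVC differed, with *CXCL8* at 973 in the 1343 mitotic cells and 1122 in the rest, and *CCL2* at 48.2 and 84.4. In RVT, *PTGS2* was at 19.9 CPM in the 301 mitotic cells and 53.4 in the others, a ratio of 0.373 (0.170 to 0.713). *CXCL1* was at 64.2 CPM in mitotic RVT cells and 12.2 in the others, and *CCL2* at 55.4 and 3.29, or 24.4 in mitotic cells without the cell that held 14 of its UMIs.

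In RVT the level of *PTGS2* differed by *EGR1*, an immediate-early transcription factor. It was at 83.5 CPM in RVT cells with an *EGR1* UMI and 46.9 in the others, a ratio of 1.78 (1.46 to 2.16). *IL11* and *CXCL8* were higher in those cells too, at 13.6 against 4.80 CPM and 12.4 against 6.44. *CXCL8* was also higher in RV cells with *EGR1*, at 152 against 49.5 CPM (ratio 3.07, 2.00 to 4.52). In S the intervals for *EGR1* included 1 for all 10 genes. RVT cells with a *PLA2G4A* UMI, a class picked after the levels were seen, had *PTGS2* at 83.6 CPM against 50.9, a ratio of 1.64 (1.13 to 2.32). *FOSL1*, an AP-1 subunit that depends on ERK activity, marked cells with more *CXCL8* in S (148 against 76.1 CPM), *CXCL1* (210 against 129) and *IL11* (88.7 against 52.3). In RVC, cells with *FOSL1* had more *IL6*, *IL11*, *CXCL1* and *CXCL2*, and the interval for *CXCL8* included 1. In RV none of the 10 genes had an interval above 1 for *FOSL1*, and *IL1B* was lower (35.2 against 52.6 CPM). In the 175 RVT cells with *FOSL1*, *CXCL8* was at 30.5 against 6.73 CPM (ratio 4.53, 1.89 to 9.39). *CXCL1* was at 34.3 against 13.8 CPM (2.48, 1.11 to 4.83). These RVT levels rested on 8 and 9 UMIs in the cells with *FOSL1*.

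Transcripts of the cytokine receptors were counted per library. *CXCR1* and *CCR2* had 0 UMIs in every library and *CXCR2* at most 2, below the limit of 3 UMIs, which is 0.0513 to 0.118 CPM by library. Of the 13 receptors and decoys listed, 6 passed the 1 CPM filter, and 5 of them were at least 2-fold higher and 1 (*IL11RA*) lower in RVC than in S, against 23.8% and 22.3% of all genes. In RVT, 5 were higher and 0 lower, against 34.1% and 21.7%. Under TMM 2 were higher in RVC and 4 in RVT, against 17.8% and 21.1% of all genes under that scaling. *OSMR*, a partner of gp130, was at 8.27 (S), 8.86 (RV), 44.2 (RVC) and 65.3 CPM (RVT), and *IL6ST*, which encodes gp130, at 22.2, 16.3, 45.7 and 68.5. *IL6R* was at 0.837, 1.54, 3.94 and 7.17 CPM. *IL11RA* was at 5.50 CPM in S, 2.24 in RVC and 13.04 in RVT. The receptor of interleukin-1, *IL1R1*, was at 0.239 CPM in S and 3.27 in RVT, where *IL1A* was lowest. Of 10 JAK and STAT3 pathway genes tested, 3 were higher in RVC and 8 in RVT and none lower, against 23.8% and 34.1% of all genes higher. Under TMM the counts were 3 and 6, against 17.8% and 21.1%. *STAT3* was at 24.3 CPM in S and 110 in RVT before that scaling.

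Genes around *PTGS2* in prostaglandin synthesis differed in pattern. Of the 13 listed, 5 passed the filter, of which 0 were higher and 2 lower in RVC than in S, and 2 higher (*PLA2G4A* and *ABCC4*) and 2 lower in RVT. The shares of all genes were 23.8% and 22.3% in RVC and 34.1% and 21.7% in RVT, and under TMM 1 was higher and 3 lower in RVT, against 21.1% and 29.9%. *PTGES*, the inducible prostaglandin E synthase that acts after *PTGS2*, was at 38.2 (S), 36.6 (RV), 7.31 (RVC) and 0.709 CPM (RVT), and *PTGES2* at 63.6, 65.9, 13.4 and 10.4. The export pump *ABCC4* was at 4.43 CPM in S and 11.9 in RVT. RVT thus had the highest *PTGS2* and *PLA2G4A* and the lowest *PTGES*. Of the 8 genes of interleukin-1 processing and release, 6 passed the filter: *CASP1*, which encodes caspase-1, was at 0.701 (S), 2.71 (RV), 3.55 (RVC) and 21.0 CPM (RVT), and the pore gene *GSDMD* at 34.2, 40.3, 7.85 and 11.1.

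Genes of the NF-kB system were called in both directions. Of its 18 subunits, kinases and inhibitors, 0 were higher and 1 lower in RV than in S (3.53% and 3.2% of all genes), 2 higher and 4 lower in RVC, and 6 higher and 5 lower in RVT, against 23.8% and 22.3% of all genes in RVC and 34.1% and 21.7% in RVT. Under TMM 3 were higher and 7 lower in RVT, against 21.1% and 29.9% of all genes under that scaling. *NFKB2* was at 20.9 (S), 17.2 (RV), 2.55 (RVC) and 1.06 CPM (RVT), and *RELB*, its partner in the noncanonical pathway, at 21.6, 14.7, 7.82 and 4.73. *TNFAIP3*, an inhibitor that NF-kB itself induces, was highest in RVC at 15.98 CPM, against 2.02 in S, 1.93 in RV and 5.99 in RVT. Of 10 other NF-kB target genes tested, 2 were higher and 3 lower in RVC than in S, and 1 higher and 6 lower in RVT, against the same shares of all genes. *LCN2* went from 110 CPM in S to 0.118 in RVT, on 3 UMIs, and *BIRC3* from 21.7 to 1.69, whereas *TNFAIP2* was at 24.5 CPM in S and 100.2 in RVC.

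Of 12 genes of AP-1, C/EBP and related factors tested, 4 were higher and 3 lower in RVC than in S, and 5 higher and 3 lower in RVT, against the same shares of all genes. *FOSL1* was at 164 (S), 341 (RV), 117 (RVC) and 15.2 CPM (RVT). *FOSL1* and *CXCL8* were both lowest in RVT, but *FOSL1* was highest in RV and *CXCL8* in RVC. *FOS* and *FOSB* were higher in both double-treated libraries, at 8.90 and 2.99 CPM in S and 67.5 and 66.8 in RVT. *JUNB* was at 106 CPM in S and 12.2 and 12.9 in RVC and RVT. Among 12 regulators of AU-rich transcripts, 2 were higher in RVC than in S, and 6 were higher and 2 lower in RVT (4 and 4 under TMM), against 23.8% of all genes higher in RVC, and 34.1% higher and 21.7% lower in RVT (21.1% and 29.9% under TMM). *ZFP36*, which encodes tristetraprolin, the protein that binds such elements and speeds decay, was at 2.49 (S), 4.25 (RV), 4.82 (RVC) and 20.7 CPM (RVT), and *ZC3H12A*, an RNase against cytokine transcripts, was at 5.16 CPM in S and 1.42 in RVT.

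Most other cytokines and chemokines outside the group were below 1 CPM. Of 23 further cytokines and growth factors 11 passed the filter, and 5 of them were higher in RV than in S (3 under TMM), against 3.53% of all genes (3.24% under TMM). In RVC 3 were higher and 3 lower, against 23.8% and 22.3% of all genes. Under TMM these were 2 and 3, against 17.8% and 25.8%. In RVT 3 were higher and 6 lower, against 34.1% and 21.7%. Under TMM these were 2 and 8, against 21.1% and 29.9%. Of 23 further chemokines 6 passed. *MIF*, a cytokine made constitutively by many cells, was at 542 (S), 704 (RV), 22.4 (RVC) and 20.2 CPM (RVT). *CSF1*, a macrophage growth factor, was at 1.56 (S), 3.20 (RV), 10.3 (RVC) and 18.5 CPM (RVT), and *IL32* at 7.23, 5.07, 19.6 and 1.18. *IL24* was at 155 (S), 312 (RV), 6.85 (RVC) and 60.3 CPM (RVT). *IL18*, which like *IL1B* is cut by caspase-1, was at 3.61 (S), 12.5 (RV), 2.46 (RVC) and 0.433 CPM (RVT), the same order of RV, S and then the double-treated libraries as *IL1B*. *CCL20* was at 0.786 CPM in S and 5.97 in RVC. *TNF* had 1 UMI in S, 3 in RVC and 0 in RV and RVT, at or below the limit of 3 UMIs.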

How the data were processed

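Single-cell RNA-seq (10x Genomics Chromium v2, 3' ends) was made from 1 library per condition, 4 in all. The deposited counts are UMIs per gene and barcode, made by the authors with Cell Ranger on GRCh38 after bcl2fastq 2.20.0.422, per the submitters' processing notes, and were not normalized. Filters used before deposit and strand handling are not given in the sources used here. The tables hold 703 identifiers found only for S and RV and 547 found only for RVC and RVT.

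Cells with at least 500 genes and at most 20% mitochondrial UMIs were kept. The barcodes with the highest scrublet doublet scores (scanpy 1.11.5) were removed at a preset rate of 0.8% per 1000 barcodes. This marked 359 (S), 150 (RV), 687 (RVC) and 870 (RVT) barcodes. The method's own threshold called only 4, 2, 1 and 0, so the marked barcodes are not detected doublets. Filtered libraries held 25390117 to 58519152 UMIs. UMIs were summed per library and given as CPM (numpy 2.4.6, pandas 2.3.3, scipy 1.17.1, python 3.11.15). A call is a ratio of at least 2, among genes with a mean of at least 1 CPM. Thinning used seed 1. Computations were tested on simulated data with known ratios.

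The members and the gene lists were chosen with earlier results of these data known. Genes of the lists were named where they were at least 2-fold different from S in any library with at least 3 CPM in the higher one, up to 5 per list by size; the 5 likest genes were named among those with a UMI in at least 2% of cells. Genes of a list with 0 to 3 UMIs, the chromosomal neighbours, and the classes by *C15orf48*, *COL3A1* and *PLA2G4A* were chosen after their values were seen. Alternatives were TMM scaling (edgeR 4.0.16, R 4.3.3), other cell filters, no doublet removal, equal weight per cell, GC centring, another seed, thinning to 1000 UMIs and other background filters, and, added after seeing the data, leaving out the cell with most UMIs of a gene. Figures were drawn with matplotlib 3.10.9.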

Additional observations from a re-analysis of the deposited data

How the results depend on the processing

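No paired analysis was possible because each condition had 1 library. Of 432 log2 ratios of the 10 genes that 11 alternatives gave, 327 stayed within the counting interval and 105 moved outside it. The sign changed in 15, of which 13 had an interval that included 1 to begin with, and the other 2 were *PTGS2* in RVC over S, at -0.14 with GC centring and -0.73 without the 1% of cells with most of its UMIs. That last setting gave no ratio in 8 cases (*IL1A*, *IL1B*, *CCL2* and *PTGS2*), since it removed every UMI of the gene from a library. The setting also removed 84.7% of the *PTGS2* UMIs in RVC and 65.5% in S. It took 87.5% of the *IL6* UMIs in RVT and 46.3% in S, so its ratios for such sparse genes depend on level. Among the ratios it gave, *IL1B* in RV over S was 2.37-fold, which made 1 gene higher in place of 0, *IL6* in RVT over S was at -1.95, and 0 genes were lower in RVC over S in place of 2, since *IL1A* and *IL1B* had no value. Equal weight for every cell also made 1 gene higher in RV over S, *IL1B*, and took *CCL2* in RVT over S to -1.16. With all deposited barcodes and with no doublet removal, *CXCL2* in RVT over RVC was at -0.91 and -0.93 and no longer called. For these changes other than the removal of cells the cause was not tested. Every other count of called genes among the 10 was within 1.5 times its value under these alternatives; counts over the other gene lists were recomputed under TMM alone.

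With all genes having at least 1 UMI as background, RV over S had 11.7% higher and 9.87% lower, and with a mean of at least 10 CPM 1.91% and 1.25%. Of 40 shares of cells, 36 stayed within their interval with another seed and 10 after thinning to 1000 UMIs, which lowers detection by construction. Pairs found together more often numbered 14 of 36 in S, 17 in RVC and 2 in RVT with another seed, and 8 of 28, 10 of 21 and 2 of 28 after thinning to 1000 UMIs. *IL1A* in RVT, with 7 UMIs, and *PTGS2* in RV, with 21, are limited by depth, and no alternative stands in for the missing replicate cultures.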
